A study of Caenorhabditis elegans with 9 samples.

Results

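The comparison described here set starved larvae of both O-GlcNAc cycling mutants of Caenorhabditis elegans, pooled, against starved wild type larvae, and followed the genes that moved the same way in both mutants. RNA was read on 9 Affymetrix arrays, 3 for each of 3 strains: wild type, ogt-1(ok430), which carries a deletion in the gene of the O-GlcNAc transferase, and oga-1(ok1207), which carries a deletion in the gene of the O-GlcNAcase. In all strains embryos freed by bleaching hatched into sterile buffer without food, and the larvae, at the first stage (L1), were collected after 48 h. Each mutant strain is 1 allele, and the arrays of a strain are labelled as biological replicates. The pooled difference is the mean of the ogt-1 and oga-1 means minus the wild type mean, so that each mutant has the same weight. All 9 arrays of the series enter it, and 20766 of the 22625 probe sets on the array, those that are no control and have 1 gene symbol, were followed. Gene names and chromosomes come from the array's annotation and a gene table of assembly WBcel235.

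O-GlcNAc is a single sugar placed on serines and threonines of nuclear and cytosolic proteins. The transferase OGT-1 adds it, using a donor made by the hexosamine pathway from glucose, glutamine, acetyl-CoA and uridine, and OGA-1 takes it off, so the mark is known as a sensor of nutrients. C. elegans larvae without either enzyme are viable, and the pathway is known in this animal for its ties to insulin signalling, to fat and carbohydrate stores and to the starved L1 and dauer states.

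Values are log2 levels of whole larvae, where fewer cells of a type and less RNA per cell cannot be told apart. The 5 probe sets for yeast genes, which larvae lack, reached a strain mean of 6.26, and a fold whose dimmer side lies at or below that level is given as "at least", with each dim array counted at that level. Wild type and the 6 mutant arrays were separated on the first principal component (30.7% of the variance), and oga-1 replicate 2 lay farthest out on the second one (24.1%). The 3'/5' log2 ratios of the actin controls, a sign of RNA integrity, ran from 0.235 to 0.774 on wild type and from 0.337 to 0.595 on mutant arrays. Those of catalase ran from 0.433 to 0.716 on wild type and from -0.062 to 0.678 on mutant arrays. For each control the mean ratio was lower in ogt-1 and in oga-1 than in wild type, although the ranges overlapped. The means in wild type, ogt-1 and oga-1 were 0.563, 0.524 and 0.477 for actin and 0.589, 0.387 and 0.35 for catalase. They were 0.105, -0.033 and 0.079 for Gapdh and 2.945, 2.86 and 2.854 for ubiquitin. The part of RNA integrity in the results was not tested. Of the targeted genes, the dimmer ogt-1 probe set was lower over both mutants by 0.50 (limma adjusted p = 0.0147, lost without wild type replicate 1 at 0.0599), and the brighter one differed by -0.32 (adjusted p = 0.242). The 3 oga-1 probe sets differed by 0.06, 0.04 and 0.03 (adjusted p of 0.897, 0.927 and 0.972). The positions of these probes relative to the deletions were not used here, so the levels are no check of the labels.

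The pooled comparison asks which transcripts of the starved larva differ from wild type in both mutants. Each mutant is 1 allele, and both are set against the same wild type cultures. Loss of an enzyme therefore cannot be told apart here from other differences between the strains or cultures. Over both mutants 1079 of 22548 probe sets (4.79%) differed from wild type at a limma adjusted p under 0.05 (Benjamini-Hochberg), 467 higher (2.07%) and 612 lower (2.71%). A probe set was said to have moved the same way in both mutants when it passed this test and each mutant's own difference had the same sign with an unadjusted limma p under 0.05. This held for 938 of the 20766 probe sets (4.52%). Read by the brightest probe set of each gene, 337 of 17118 genes rose (1.97%) and 517 fell (3.02%), 854 in all (4.99%). The mutants' own differences share the wild type arrays, so that a sign common to both is not independent evidence. The gene count was 553 without wild type replicate 1, 470 without wild type replicate 2, 432 without wild type replicate 3, 424 and 499 without ogt-1 replicates 2 and 3, and 495 without oga-1 replicate 1, and the probe set count was 698, 595, 538, 531, 622 and 630 in the same order. A core of 76 risers and 188 fallers moved the same way without each of the 9 arrays in turn. Whether more genes fell than rose is not settled: after median centring 599 probe sets stood above wild type and 543 below, and the genes split into 116 that rose and 354 that fell when wild type replicate 2 was left out.

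Most of these changes were modest, with a lean to larger changes in ogt-1. The median rise of the 388 probe sets that rose (1.87%) was 0.52 (log2; 0.56 in ogt-1 and 0.49 in oga-1), and the median fall of the 550 that fell (2.65%) was -0.57 (-0.59 and -0.54). The change was larger in ogt-1 for 256 of the 388 rises and 366 of the 550 falls. At least 2-fold changes numbered 42 rises and 41 falls. Of the 938 probe sets, 284 passed the adjusted test in each mutant by itself, 89 of them higher and 195 lower, where 3.91% of all probe sets passed in ogt-1 (882) and 1.93% in oga-1 (436). Arrays of wild type and oga-1 that share a replicate number deviated from their strain means together (correlations from 0.357 to 0.481), and with the replicate number as a block 749 probe sets passed in oga-1. The arrays of both mutants lay beyond all wild type arrays in 870, where 9.73% of all tested probe sets did so. A direct test between the mutants passed for 14 of the 938, 12 of them rises, against 0.514% of all probe sets.

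**Figure D1:**
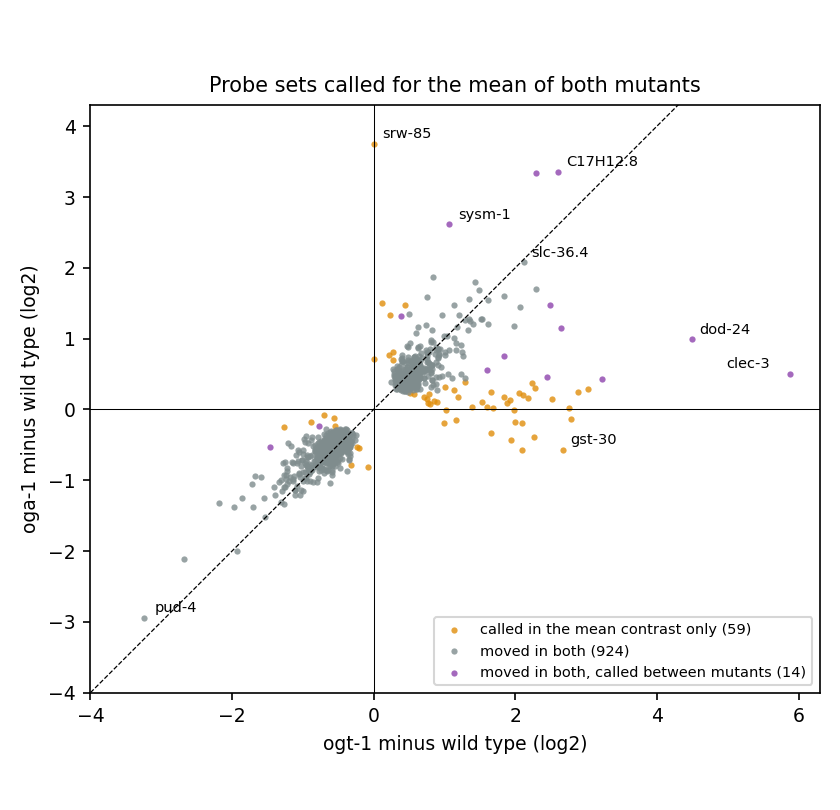
Difference from wild type in ogt-1 (horizontal, log2) against that in oga-1 (vertical, log2) for the 997 probe sets with 1 symbol (4.80% of those followed) that were called in the pooled comparison. Grey points (924) moved the same way in both mutants, purple points (14) did so and were called between the mutants, and orange points (59) did not meet the rule in both. The dashed line marks equal change. Both axes use the same wild type arrays.

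The largest rises and falls named here were taken from genes whose mutant arrays all lay beyond the wild type arrays, so their lack of overlap comes from that choice and is a description. The largest pooled rise not called between the mutants was that of slc-36.4, of the SLC36 family of amino acid transporters. On wild type arrays it read 7.90, 7.48 and 8.37, on ogt-1 arrays 10.06, 10.14 and 9.93, and on oga-1 arrays 9.88, 10.07 and 10.03 (log2 level, replicates 1 to 3). The mutant arrays lay close together and well above each wild type array. The rise was 2.1 ± 0.15 (SE), or 4.30-fold (adjusted p = 2.04e-05), with 2.13 in ogt-1 and 2.08 in oga-1, and the difference between the mutants was -0.05 with a 95% interval from -0.44 to 0.34. Its relative slc-36.5 fell: it read 8.46, 8.61 and 9.38 in wild type, 7.94, 7.44 and 7.40 in ogt-1 and 7.74, 7.81 and 8.27 in oga-1. The fall of 1.05 ± 0.20 (SE; adjusted p = 0.0141) did not pass with the arrays numbered 2 of wild type and oga-1 both removed (highest adjusted p over all settings 0.137). Of 29 amino acid and neurotransmitter transporters 2 rose (6.9%, beside 1.97% of all genes) and 3 fell (10.3%, beside 3.02%). Besides the SLC36 pair, the betaine transporter gene snf-3 fell by 0.66 (adjusted p = 0.00458), and its other probe set fell by 0.87.

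The ornithine decarboxylase gene odc-1, whose enzyme makes putrescine in the first step of polyamine synthesis, rose in both mutants. It read 9.08, 9.23 and 9.59 in wild type, 10.86, 10.85 and 10.49 in ogt-1 and 11.11, 11.06 and 11.13 in oga-1. Every mutant array stood above the highest wild type array. The rise was 1.62 ± 0.12 (SE), or 3.07-fold (adjusted p = 2.92e-05), and it passed without each array in turn. None of the other 16 of 17 polyamine and methionine genes moved.

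**Figure D2:**
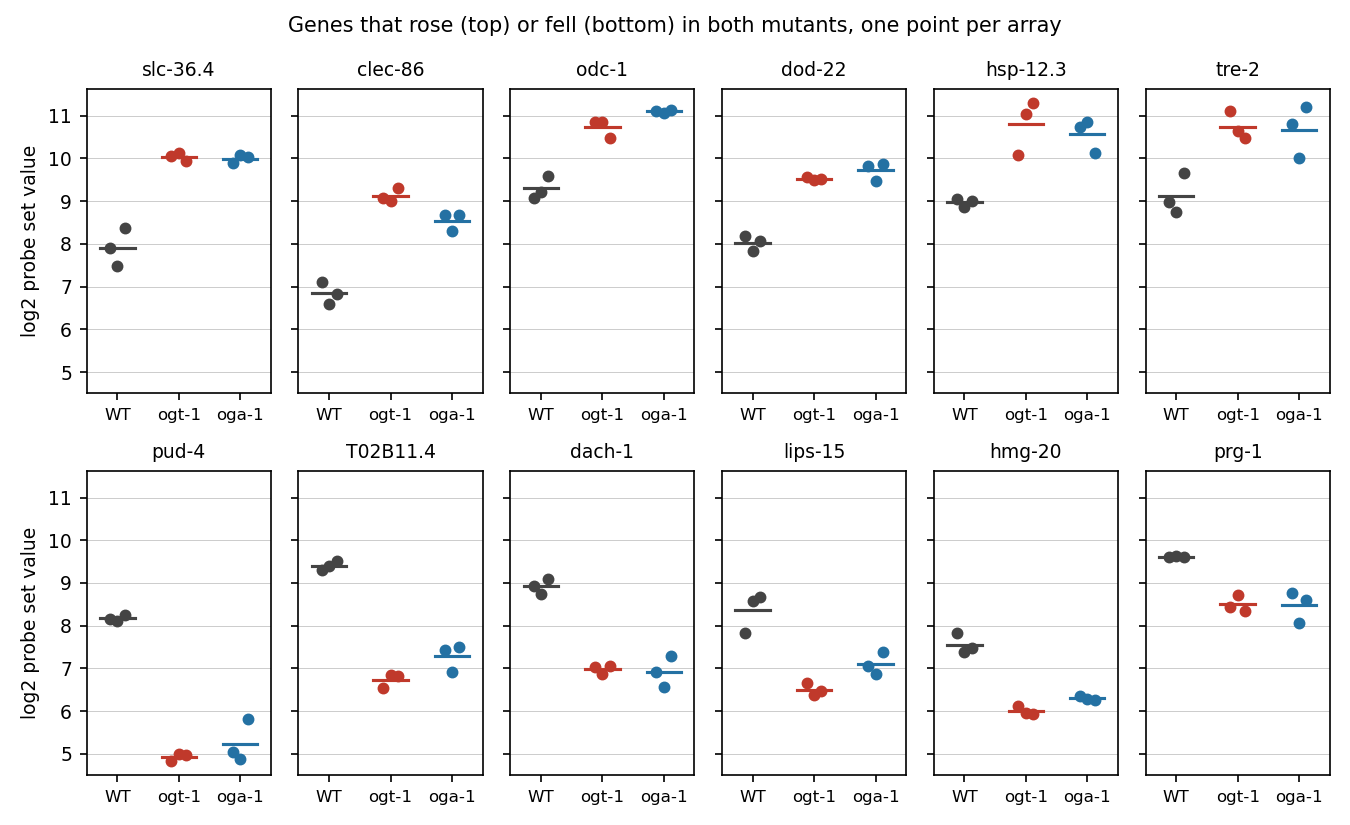
Log2 level on each array (points) and strain mean (lines) for 6 genes that rose in both mutants (upper row) and 6 that fell (lower row). In each panel all 6 mutant arrays lie on 1 side of the 3 wild type arrays, and the strain means of the mutants lie closer to each other than to wild type.

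Genes with the CUB-like domain encode predicted secreted proteins, and several of them are induced by infection. The group includes dod genes (downstream of DAF-16, the FOXO factor of insulin signalling), and some of it rose in both mutants. A list centred on the dod cluster of chromosome IV was drawn up after values were seen. Of its 10 measured genes 7 rose and 0 fell, and 5 of the 7 did so without each array in turn. The median over the 10 was 1.30, beside 0.006 over all genes, and follows from that choice of members. On the separate list of 9 dod genes 3 rose (33.3%, beside 1.97% of all genes) and 1, dod-6, fell (11.1%, beside 3.02%), with a median of 0.235. The rise of dod-19 on that list was lost for 6 of the arrays left out in turn (highest adjusted p 0.155). The gene dod-22 read 8.19, 7.83 and 8.08 in wild type, 9.57, 9.49 and 9.52 in ogt-1 and 9.82, 9.47 and 9.86 in oga-1. It rose 3.01-fold (1.59 ± 0.11, SE, adjusted p = 1.53e-05), by 1.49 in ogt-1 and 1.69 in oga-1, with no overlap between mutant and wild type arrays. C17H12.8 went up from 7.89, 7.67 and 7.56 in wild type to 10.43, 9.99 and 10.52 in ogt-1 and to 11.16, 10.98 and 11.04 in oga-1. That is 7.88-fold (2.98 ± 0.12, SE, adjusted p = 2.64e-07), and both its probe sets rose. F55G11.7 rose 3.37-fold and F55G11.8 3.96-fold, and the rise of F55G11.8 was larger in ogt-1 (2.50) than in oga-1 (1.48, adjusted p between mutants = 0.00450).

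The rise of dod-24 was the most uneven of this group. Its probe set, which can bind related transcripts, read 8.94, 8.33 and 8.24 in wild type, 12.94, 12.99 and 13.06 in ogt-1 and 9.62, 9.35 and 9.51 in oga-1. Both mutants lay above wild type, and ogt-1 lay far above oga-1. The rise was 4.49 in ogt-1 and 0.99 in oga-1, a difference of -3.50 with a 95% interval from -3.86 to -3.15. The 4 genes dod-24, F55G11.7, F55G11.8 and dod-22 lie within 27.3 kb on chromosome IV, a stretch with 9 measured genes in all. F35E12.6, on chromosome V beside the infection response gene irg-5, rose by 1.01 (adjusted p = 0.0102, lost without wild type replicate 2 at 0.0521).

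Small heat shock proteins, which hold unfolding proteins in solution, went up in part. Of 10 measured, 3 rose (30%, beside 1.97% of all genes) and 1 fell (10%, beside 3.02%), with a median of 0.27. The gene hsp-12.3 read 9.06, 8.87 and 9.0 in wild type, 10.09, 11.05 and 11.30 in ogt-1 and 10.73, 10.85 and 10.13 in oga-1. Its rise of 3.29-fold (1.72 ± 0.23, SE, adjusted p = 0.00212) was clear of the wild type arrays, although the mutant arrays spread over more than 1 log2 unit, and it did not pass without variance moderation (adjusted p = 0.0640). The heat shock gene hsp-16.2 rose 2.42-fold, from 9.86, 10.53 and 9.25 in wild type to 10.68, 11.24 and 11.56 in ogt-1 and 11.19, 11.29 and 10.96 in oga-1 (1.27 ± 0.25, SE, adjusted p = 0.0138). Its wild type replicate 2 came within a short step of the lowest mutant array, and the call of hsp-16.2 was lost without variance moderation (highest adjusted p over all settings 0.142). The third riser, hsp-12.6, rose by 1.41 (adjusted p = 0.0255), which fails once ogt-1 replicate 2 or 3 or oga-1 replicate 1 is left out (highest adjusted p 0.0604). The faller, sip-1, fell by 0.77 in ogt-1 and differed by -0.23 in oga-1, and this gap between the mutants passed the test (0.54, 95% interval from 0.34 to 0.74, adjusted p = 0.0196).

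Chaperones of the endoplasmic reticulum and the unfolded protein response leaned upward by small steps. Of 33 genes 28 were above 0, where 8855 of all 17118 were, and the median was 0.16. Risers numbered 3 (9.09%, beside 1.97% of all genes) and fallers 0. Only hsp-4, the BiP chaperone (0.76), pdi-2, a disulphide isomerase (0.59), and sel-11, a ubiquitin ligase of protein disposal (0.37), passed, all lost without wild type replicate 2 (highest adjusted p 0.0887, 0.0718 and 0.125 over the arrays left out). The dimmer probe sets of pdi-2, at 0.32, and of sel-11, at 0.10, did not pass. The call of hsp-4 was also lost without wild type replicate 1 or 3 or oga-1 replicate 1. That of sel-11 was also lost without wild type replicate 3, ogt-1 replicate 2 or 3 or oga-1 replicate 1. Aminoacyl-tRNA synthetases, which load amino acids onto tRNA, had 5 risers (15.2%, beside 1.97%) and 0 fallers among 33. Their list was drawn up after values were seen, and 26 of its genes were above 0. The riser that passed without each array in turn was yars-1 (0.50 ± 0.09, SE, adjusted p = 0.00854), although its 2 dimmer probe sets, at 0.37 and 0.28, did not pass. Cytosolic ribosomal proteins (62 genes) and mitochondrial ribosomal proteins (57 genes) had 0 movers.

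Among metal and immune genes, the metallothionein mtl-2, which binds heavy metals in the intestine, rose on all its 3 probe sets. The brightest read 11.10, 10.91 and 10.84 in wild type, 12.24, 12.76 and 12.71 in ogt-1 and 12.25, 12.01 and 12.21 in oga-1, a rise of 2.66-fold (1.41 ± 0.12, SE, adjusted p = 9.99e-05). All mutant arrays lay above all wild type arrays. The infection response gene irg-1 rose at least 1.28-fold, from 5.78, 5.80 and 5.36 in wild type, below the yeast level, to 6.18, 6.54 and 6.45 in ogt-1 and 7.02, 7.16 and 6.35 in oga-1 (adjusted p = 0.00911). Of 16 lysozymes, enzymes that cut bacterial walls, lys-2 rose (6.25%, beside 1.97% of all genes) and lys-4 fell (6.25%, beside 3.02%). On this list 2 genes were above 0, and the median was -0.11. The rise of lys-2 was 1.86-fold (0.90 ± 0.14, SE, adjusted p = 0.00425), and lys-4 fell 2.61-fold (-1.39 ± 0.13, SE, adjusted p = 0.000176), from 8.25, 7.62 and 7.88 in wild type to 6.24, 6.27 and 6.09 in ogt-1 and 6.83, 6.70 and 7.04 in oga-1. The saposin-like gene spp-6, whose family can open bacterial membranes, fell 2.23-fold (-1.16 ± 0.11, SE, adjusted p = 0.000182), nearly alike in ogt-1 (-1.11) and oga-1 (-1.21).

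C-type lectins, sugar-binding proteins many of which are secreted in immune responses, split in direction. Of 220 measured genes 9 rose (4.09%, beside 1.97% of all genes) and 14 fell (6.36%, beside 3.02%). Without each array in turn 6 and 5 of them did so, and the list's median was -0.004. The gene clec-86 rose 4.00-fold (2.00 ± 0.13, SE, adjusted p = 9.78e-06), from 7.11, 6.59 and 6.82 in wild type to 9.07, 9.01 and 9.32 in ogt-1 and 8.68, 8.30 and 8.67 in oga-1. No mutant array came near a wild type array. The lectins clec-76 (0.91) and clec-66 (1.29) rose as well, clec-66 more in ogt-1 (1.84) than in oga-1 (0.75, adjusted p between mutants = 0.00542), and clec-37 fell by 0.72 (adjusted p = 0.00177). Its neighbour on chromosome V, clec-35, also fell. The largest pooled difference of array values was that of clec-3, a rise of at least 5.66-fold, which read 5.42, 5.58 and 5.72 in wild type, 11.51, 11.32 and 11.52 in ogt-1 and 6.18, 5.87 and 6.17 in oga-1. It rests almost wholly on ogt-1, at least 36.5-fold above wild type, since the oga-1 arrays, like wild type, lay below the yeast level, and it did not pass when the mutant arrays were treated as 1 group of 6.

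Carbohydrate stores are handled by several genes that moved. Trehalase cuts the storage sugar trehalose into glucose, and tre-2 rose 2.98-fold (1.57 ± 0.26, SE, adjusted p = 0.00568). It read 8.99, 8.74 and 9.66 in wild type, 11.10, 10.65 and 10.48 in ogt-1 and 10.80, 10 and 11.22 in oga-1. The mutant arrays did not overlap wild type, although each strain spread widely, and the call was lost without variance moderation (adjusted p = 0.0992). Of the genes related to acid alpha-glucosidase, which frees glucose from glycogen in lysosomes, aagr-2 and aagr-1 moved in opposite directions. The gene aagr-2 rose from 10.56, 10.43 and 10.68 in wild type to 11.36, 11.50 and 11.54 in ogt-1 and 11.27, 11.19 and 11.43 in oga-1 (0.82 ± 0.10, SE, adjusted p = 0.000680). The gene aagr-1 fell from 9.83, 9.81 and 9.77 in wild type to 8.72, 8.14 and 8.15 in ogt-1 and 9.42, 8.99 and 9.41 in oga-1. Its fall was larger in ogt-1 (-1.47) than in oga-1 (-0.53), a gap of 0.93 with a 95% interval from 0.57 to 1.29 (adjusted p = 0.0286). The trehalose and glycogen list, 18 genes, held 3 risers (16.7%, beside 1.97% of all genes) and 1 faller (5.56%, beside 3.02%), and its median was 0.10. The third riser, T04A8.7 (0.33, adjusted p = 0.0393), lost its call without any 1 array other than oga-1 replicate 2 (highest adjusted p 0.127).

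Of 29 genes of glycolysis, gluconeogenesis and the glyoxylate cycle, 3 rose (10.3%, beside 1.97% of all genes) and 1 fell (3.45%, beside 3.02%). The gluconeogenic enzyme pck-1, phosphoenolpyruvate carboxykinase, rose by 0.70 (adjusted p = 0.00975, lost without wild type replicate 2 at 0.0505) and the aldolase aldo-1 by 0.49 (adjusted p = 0.0109, lost without wild type replicate 2 at 0.0521). A dimmer aldo-1 probe set, which can bind related transcripts, was at 0.26 and did not pass. Genes of propionate breakdown, the vitamin B12-dependent route from propionyl-CoA into the citric acid cycle, had 4 risers among 6 on a list drawn up after values were seen. The riser that passed without each array in turn was pcca-1, a subunit of propionyl-CoA carboxylase (0.54 ± 0.10, SE, adjusted p = 0.0109), whose dimmer probe set was at 0.31 and did not pass. The partner subunit pccb-1 rose by 0.41 (adjusted p = 0.0290), which fails once wild type replicate 1 or 2, ogt-1 replicate 2 or 3 or oga-1 replicate 1 is left out (highest adjusted p 0.104). Its dimmer probe set, at 0.21, did not pass. On the kynurenine route of tryptophan breakdown, also listed after values were seen, 3 of 5 genes fell and all 5 were below 0, and 0 of the falls passed without each array in turn. The largest was that of kmo-1, kynurenine monooxygenase (-0.58, adjusted p = 0.0161, lost without wild type replicate 2 at 0.0717).

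Some genes of lipid synthesis fell. Of 35 genes of fatty acid synthesis, desaturation, elongation and acyl transfer, 6 fell (17.1%, beside 3.02% of all genes) and 0 rose. On this list 9 genes were above 0, and the median was -0.19. The delta-5 desaturase gene fat-4, whose enzyme acts late in making polyunsaturated fatty acids, read 12.33, 12.32 and 12.24 in wild type, 11.60, 11.76 and 11.79 in ogt-1 and 11.90, 11.59 and 11.86 in oga-1. Its fall of 0.55 ± 0.10 (SE, adjusted p = 0.00812) was small and clear of the spread between replicates. Acyltransferase genes, which attach fatty acids to glycerol or to lysolipids, made up 4 of the 6, and acl-13 (-0.87), acl-2 (-0.60) and acl-7 (-0.54) passed without each array in turn. The stearoyl-CoA desaturase gene fat-6 fell by 0.45 (adjusted p = 0.0113, lost without wild type replicate 2 at 0.0509).

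Some lipases fell too. Of 26 lipases and lipase-related genes, 4 fell (15.4%, beside 3.02% of all genes) and 0 rose. On this list 12 genes were above 0 and the median was -0.024, so the list as a whole did not shift. The lipase-related gene lips-15 read 7.82, 8.58 and 8.66 in wild type, 6.65, 6.37 and 6.47 in ogt-1 and 7.05, 6.87 and 7.39 in oga-1, a fall of 2.94-fold (-1.56 ± 0.18, SE, adjusted p = 0.000665). Its mutant arrays all lay below the lowest wild type array. The lipase lipl-5 fell by 0.52 (adjusted p = 0.00425) and lips-10 by 0.95 (adjusted p = 0.00348), although a dimmer lips-10 probe set, at -0.48, did not pass. Of 60 genes of fatty acid activation and beta-oxidation 3 fell (5%, near the 3.02% of all genes), led by the enoyl-CoA hydratase gene ech-7 (-0.82 ± 0.09, SE, adjusted p = 0.000493), and of 25 lipid-binding proteins and vitellogenins the fatty acid- and retinol-binding gene far-7 alone fell, by 0.70 (adjusted p = 0.00392).

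Some oxidising and conjugating enzymes of detoxification fell in both mutants. Of 73 cytochrome P450 genes, oxidases of drugs, sterols and fatty acids, 6 fell (8.22%, beside 3.02% of all genes) and 0 rose. Of these 6, 2 fell without each array in turn. The largest fall, 1.89-fold, was that of cyp-33C4 (-0.92 ± 0.12, SE, adjusted p = 0.00215), on a probe set open to related transcripts, and cyp-32B1 fell by 0.61 with nearly no spread: 11.23, 11.21 and 11.21 in wild type, 10.58, 10.53 and 10.68 in ogt-1 and 10.58, 10.58 and 10.63 in oga-1. Its adjusted p was 0.00155, and the difference between the mutants lay between -0.20 and 0.20 (95% interval). The neighbours of cyp-33C4 on chromosome V, cyp-33C3 and cyp-33C5, fell as well. The fall of cyp-33C5 fails when wild type replicate 3 is left out (adjusted p = 0.0748), and that of cyp-33C3 when the same array, any of the 3 ogt-1 arrays or oga-1 replicate 1 is (highest adjusted p 0.129). Of 64 UDP-glucuronosyltransferases, which tag lipophilic compounds with glucuronic acid, 5 fell (7.81%, beside 3.02%) and 0 rose in both mutants. Of these 5, ugt-22 (-0.84, adjusted p = 0.0204) was the one that passed without each array in turn. Short-chain, aldehyde and alcohol dehydrogenases had 5 fallers and 0 risers among 44, of which dhs-19 (-0.71), dhs-11 (-0.63) and alh-3 (-0.59) passed in every fit that left 1 array out.

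Glutathione S-transferases, which join glutathione to electrophiles, showed a high pooled value that the mutants did not share. Of 48 genes of this list 12 were called higher in the pooled comparison, where 2.23% of all genes were. Of these 12, 3 moved the same way in both, and 11 were called between the mutants, where 0.532% of all genes were. The oxidative stress reporter gene gst-4 read 7.41, 6.71 and 7.16 in wild type, 9.3, 9.59 and 9.20 in ogt-1 and 6.79, 6.62 and 6.71 in oga-1. The ogt-1 arrays lay above all others, and the oga-1 arrays overlapped the low end of wild type. The difference between the mutants was -2.66 (95% interval from -3.02 to -2.29, adjusted p = 4.11e-06). For gst-30, at 6.87, 7.23 and 6.85 in wild type, 9.46, 9.71 and 9.79 in ogt-1 and 6.54, 6.32 and 6.37 in oga-1, the 3 strains did not overlap, with ogt-1 above and oga-1 below wild type. Its oga-1 difference of -0.57 had a limma adjusted p = 0.0537. The gene gst-38 did rise in both, by 2.65 in ogt-1 and 1.15 in oga-1, and gst-33 fell in both, by 0.65 and 0.66.

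**Figure D3:**
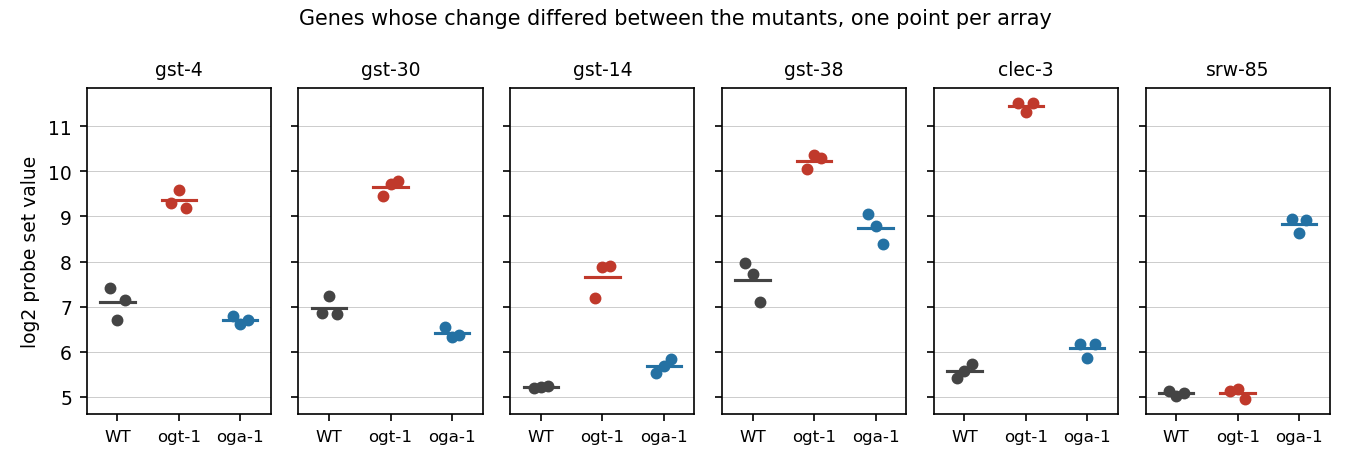
Log2 level on each array (points) and strain mean (lines) for 4 glutathione S-transferases, clec-3 and srw-85, genes whose change was called between the mutants. The pooled rise rests on ogt-1 arrays alone for gst-4 and gst-30 and on oga-1 arrays alone for srw-85, while gst-38 was above wild type in both mutants.

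The receptor-like gene srw-85 was the opposite case. It read 5.13, 5.02 and 5.09 in wild type, 5.13, 5.16 and 4.94 in ogt-1 and 8.94, 8.63 and 8.93 in oga-1, so that the pooled rise, at least 1.62-fold, rests on 1 strain. Wild type and ogt-1 overlapped below the yeast level. In oga-1 it stood at least 5.96-fold above ogt-1 (adjusted p = 8.67e-09). In all, 59 probe sets with 1 symbol were called in the pooled comparison without meeting the rule in both mutants. In 44 of these ogt-1 alone, and in 12 oga-1 alone, had an unadjusted p under 0.05.

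The largest pooled fall of array values was that of pud-4, named for a protein that is more abundant in mutants of the insulin receptor DAF-2. It read 8.16, 8.11 and 8.25 in wild type, 4.82, 4.99 and 4.96 in ogt-1 and 5.03, 4.87 and 5.80 in oga-1. All mutant arrays lay below the yeast level, so the fall was at least 3.77-fold in each mutant (pooled adjusted p = 1.84e-06). T02B11.4 fell 5.26-fold, from 9.31, 9.4 and 9.51 in wild type to 6.53, 6.83 and 6.83 in ogt-1 and 7.43, 6.92 and 7.50 in oga-1 (-2.4 ± 0.13, SE, adjusted p = 2.07e-06). There too the mutants stood apart from wild type by more than the whole spread of any strain.

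Single regulators of transcription and of small RNAs were among the fallers. The gene dach-1, the worm's counterpart of the Dachshund transcription factor, fell 3.91-fold (-1.97 ± 0.14, SE, adjusted p = 1.88e-05). It read 8.93, 8.74 and 9.09 in wild type, 7.04, 6.88 and 7.04 in ogt-1 and 6.91, 6.56 and 7.28 in oga-1. The mutants overlapped each other and lay far from wild type. The HMG-box gene hmg-20 fell at least 2.42-fold (adjusted p = 2.38e-05), from 7.82, 7.38 and 7.47 in wild type to 6.11, 5.97 and 5.93 in ogt-1 and 6.36, 6.29 and 6.27 in oga-1. Of 259 nuclear hormone receptors, ligand-gated transcription factors, 6 rose (2.32%) and 10 fell (3.86%), near the shares of all genes, and 0 and 3 of them did so without each array in turn. The fall of nhr-43 by 1.25 (adjusted p = 0.0105) was lost with the arrays numbered 2 of wild type and oga-1 removed (highest adjusted p over all settings 0.124), while nhr-106 (at least 1.56-fold) and nhr-161 (-0.65) held in that setting.

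The Piwi protein PRG-1, which binds piRNAs in the germline, was read by 1 probe set open to related transcripts. It read 9.60, 9.63 and 9.62 in wild type, 8.44, 8.73 and 8.33 in ogt-1 and 8.76, 8.05 and 8.61 in oga-1. The fall of 2.18-fold (-1.12 ± 0.15, SE, adjusted p = 0.00162) was larger than the spread of either mutant, with -1.11 in ogt-1 and -1.14 in oga-1. The secondary Argonaute gene sago-1, which acts in RNA interference, fell by 0.99 ± 0.12 (SE, adjusted p = 0.00141), and its other probe set fell by 0.72. These 2 were the movers among 51 small RNA genes (3.92%, near the 3.02% of all genes that fell). Of 26 germline markers prg-1 alone moved. The mean of that list ran from 7.432 to 7.479 on wild type and from 7.287 to 7.381 on ogt-1 arrays. On oga-1 arrays it ran from 7.415 to 7.448, a small overlap with wild type. This mean includes prg-1, so the lower mean is in part the fall of prg-1 itself. The list's median change was -0.068, with 11 of 26 genes above 0. The part of germline level in the fall of prg-1 was not tested. Of 35 histone genes 4 fell and 0 rose, led by his-64 (-0.78 ± 0.12, SE, adjusted p = 0.00481) and his-31 (-0.53, adjusted p = 0.00755), both on probe sets that can bind related histone transcripts.

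**Figure D4:**
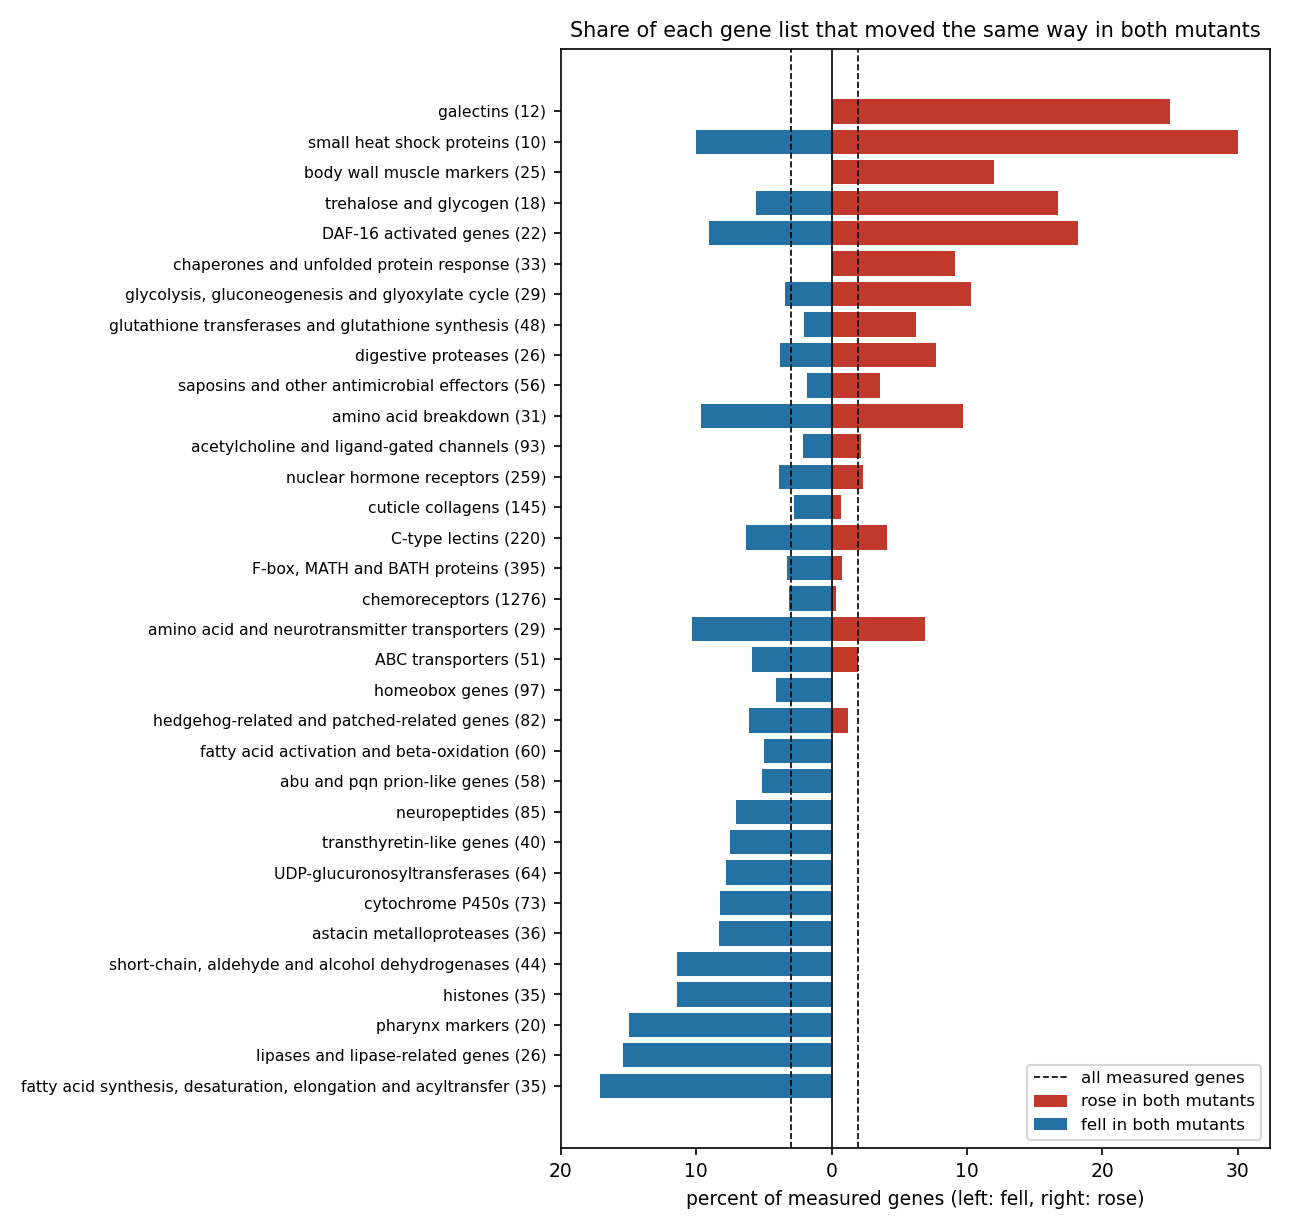
Share of the measured genes of each list (list size in brackets) that rose (right, red) or fell (left, blue) in both mutants, in percent, for the lists of at least 10 measured genes with at least 3 movers. Dashed lines mark all measured genes, 1.97% for rises and 3.02% for falls. Lists drawn up after values were seen are left out, and bars of short lists rest on few genes.

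Some neuropeptide genes, whose products are signals released by neurons, fell by small steps. Of 85 neuropeptide genes 6 fell (7.06%, beside 3.02% of all genes) and 0 rose, and 3 of the 6 fell without each array in turn. On this list 10 genes were above 0, where 8855 of all 17118 were, and the median was -0.16. The gene nlp-60 read 8.19, 7.69 and 7.99 in wild type, 7.46, 6.96 and 6.90 in ogt-1 and 6.91, 6.91 and 6.98 in oga-1, a fall of 1.92-fold (-0.94 ± 0.14, SE, adjusted p = 0.00343). Its mutant arrays were all below the wild type arrays, by a narrow step for ogt-1 replicate 1. The genes nlp-81 (-0.74) and flp-8 (-0.57, with -0.76 on its other probe set) fell without each array in turn. Of 28 neuron markers 0 moved and 8 were above 0, with a median of -0.07. Their mean level ran from 9.349 to 9.479 in wild type, from 9.331 to 9.353 in ogt-1 and from 9.253 to 9.410 in oga-1, so the groups overlapped, and the part of this level in the neuropeptide falls was not tested.

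Chemoreceptors, the seven-pass receptors of smell and taste, fell at about the rate of all genes. Of 1276 measured, 40 fell (3.13%, beside 3.02% of all genes) and 4 rose (0.313%, beside 1.97%). The largest fall was that of srv-11, which read 7.92, 7.88 and 7.54 in wild type, 6.68, 6.60 and 6.39 in ogt-1 and 6.76, 6.78 and 6.65 in oga-1 (-1.14 ± 0.11, SE, adjusted p = 0.000170). For sru-1 the fall was of like size (-1.1 ± 0.10, SE), and str-112 fell at least 1.69-fold. F-box, MATH and BATH proteins, many of them adaptors of ubiquitin ligases, likewise lay near the background, with 13 fallers (3.29%) and 3 risers among 395. Among these math-47 fell by 0.92 (adjusted p = 0.000550) with the same change in both mutants.

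Most tissue markers did not move, and the few movers of the pharynx and body wall muscle lists went opposite ways. Of 20 pharynx markers, genes of the feeding organ, 3 fell (15%, beside 3.02% of all genes) and 0 rose. On this list 3 genes were above 0 and the median was -0.27. The 3 were eat-2, a nicotinic receptor subunit that paces pumping (-0.47, adjusted p = 0.0287), ceh-2 (at least 1.5-fold, adjusted p = 0.0256) and phat-6 (-0.53, adjusted p = 0.0376). All 3 fail once ogt-1 replicate 2 or either of wild type replicates 1 and 3 is left out. The same holds of ogt-1 replicate 3 for ceh-2 and phat-6, of oga-1 replicate 1 for eat-2 and ceh-2, and of oga-1 replicate 2 for phat-6 (highest adjusted p 0.111, 0.115 and 0.136). The mean of the list ran from 9.199 to 9.470 on wild type, from 8.968 to 9.035 on ogt-1 and from 9.042 to 9.248 on oga-1 arrays, with an overlap in oga-1. The glutamine- and asparagine-rich gene pqn-75, of the abu and pqn list and not a marker here, fell by 1.19 (adjusted p = 0.0106). Of the 58 genes of its own list 3 fell (5.17%, beside 3.02% of all genes) and 0 rose, 37 were above 0 and the median was 0.038.

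Of 25 body wall muscle markers 3 rose (12%, beside 1.97% of all genes) and 0 fell, with 15 above 0 and a median of 0.05. The main myosin heavy chain gene unc-54 read 12.70, 12.13 and 12.57 in wild type, 13.27, 13.19 and 13.23 in ogt-1 and 13.35, 13.24 and 13.24 in oga-1. It rose 1.72-fold (0.78 ± 0.12, SE, adjusted p = 0.00348, and 0.0503 without variance moderation), and its mutant arrays were closer together than the wild type arrays. Myosin gene myo-3 rose by 0.78 (adjusted p = 0.0294) and the troponin I gene tni-1 by 0.49 (adjusted p = 0.0115), which fail once wild type replicate 2 or 3 is left out, and myo-3 also once ogt-1 replicate 2 or 3 or oga-1 replicate 1 is (highest adjusted p 0.130 and 0.0576). The list's mean ran from 10.731 to 11.093 on wild type and from 10.871 to 11.166 on mutant arrays, so the whole list overlapped between the groups. Of 21 intestine markers mtl-2 alone moved, and of 17 hypodermis and seam markers 2 hedgehog-related genes fell, grd-10 (at least 2.83-fold, adjusted p = 0.00660) and grd-3 (at least 1.26-fold, adjusted p = 0.00584). The mean level of the hypodermis and seam list ran from 7.555 to 7.622 on wild type and from 7.345 to 7.398 on ogt-1 arrays. On oga-1 arrays it ran from 7.421 to 7.586, so that ogt-1 alone did not overlap wild type. This mean includes grd-10 and grd-3, so the lower mean is in part their own falls. The list's median change was -0.059, with 7 of 17 genes above 0. The part of tissue level in these falls was not tested. The cilia list (36 genes), sperm list (73) and oocyte, embryo and yolk list (25) had 0 movers.

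**Figure D5:**
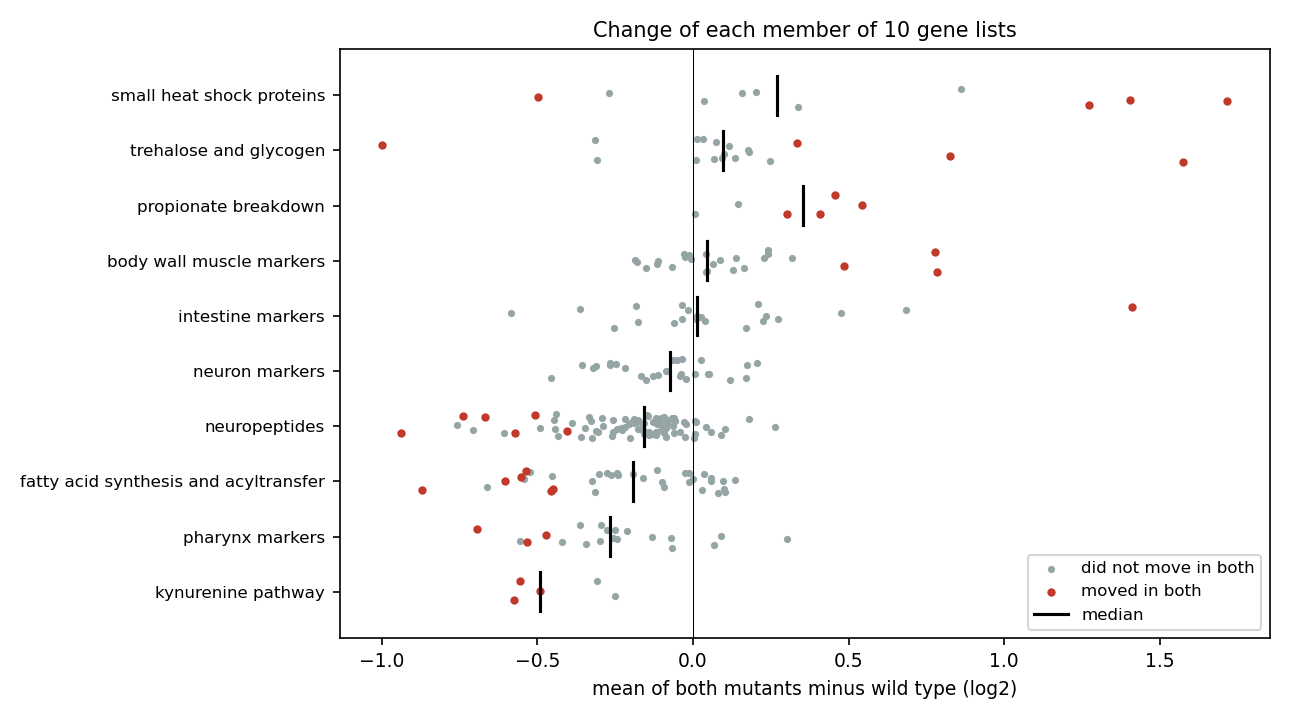
Pooled difference from wild type (log2) of each measured member of 10 lists, with members that moved the same way in both mutants in red and list medians as black bars. Vertical scatter within a list has no meaning. Neuropeptides, fatty acid synthesis and pharynx markers lie mostly left of 0, as do neuron markers by smaller steps (8 of 28 above 0), and muscle and intestine markers lie around it.

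The short lists of pathways that read nutrients or make the sugar held few movers, where 4.99% of all genes moved. Of 8 genes of O-GlcNAc cycling and hexosamine synthesis, 18 of insulin signalling and 19 of the TGF-beta and steroid dauer pathways, 0 moved by the brightest probe set. At the share of all genes, lists this short would hold few movers or none, so these counts do not set the pathways apart. Of 21 TOR and AMPK genes (4.76% fell, beside 3.02% of all genes) aakg-1 alone fell (-0.42, adjusted p = 0.0393). Its call fails when any of the 3 wild type arrays, ogt-1 replicate 2 or 3 or oga-1 replicate 1 is left out (highest adjusted p 0.168). The dimmer aakg-1 probe sets, at -0.32 and -0.39, did not pass. A further TOR complex subunit gene, mlst-8, is not on that list and rose by 0.58 (adjusted p = 0.00662). Of 24 insulin-like peptides 2 rose (8.33%, beside 1.97% of all genes), ins-6 (0.45, adjusted p = 0.0393) and ins-3 (0.47, adjusted p = 0.0478). Both fail when wild type replicate 1 or 2, any of the 3 ogt-1 arrays or oga-1 replicate 1 is left out, ins-6 also for oga-1 replicate 2 and ins-3 also for wild type replicate 3 (highest adjusted p 0.139 and 0.175). Of 22 genes known to be activated by DAF-16, 4 rose (18.2%, beside 1.97% of all genes) and 2 fell (9.09%, beside 3.02%). The risers were mtl-2 and the 3 small heat shock genes above.

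Genes of the cuticle and of surface signalling added single movers. The collagen gene col-142 rose 2.04-fold, from 7.58, 7.50 and 7.45 in wild type to 8.68, 8.69 and 8.90 in ogt-1 and 8.39, 8.27 and 8.30 in oga-1 (1.03 ± 0.09, SE, adjusted p = 7.12e-05), while 4 of the 145 collagens fell (2.76%, near the 3.02% of all genes). Its 3 strains did not overlap, and the difference between the mutants (-0.43, 95% interval from -0.66 to -0.21) did not pass the adjusted test. The astacin protease gene nas-24 fell by 1.00 (adjusted p = 0.000493). Of 82 hedgehog-related and patched-related genes 5 fell (6.1%, beside 3.02% of all genes) and 1 rose (1.22%, beside 1.97%). The riser was ptr-20 (0.66, adjusted p = 0.00471), and ptr-3 (-0.67, adjusted p = 0.00854) was among the fallers. The digestive aspartyl protease gene asp-7 rose 2.1-fold (1.07 ± 0.15, SE, adjusted p = 0.00215), and the alpha-tubulin gene tba-4 rose by 0.72 (adjusted p = 0.00193). Movers were spread over the genome, and on each chromosome between 1.57% and 2.49% of genes rose and between 2.03% and 3.48% fell.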

How the data were processed

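Total RNA from 9 cultures, 3 for each strain, was extracted with Trizol, and labelled cRNA from 4 ug of it was put on Affymetrix C. elegans arrays, per the labels' protocols. The deposited values are log2 probe set levels, normalised across arrays by the authors, since the array means all equal 7.364 and the medians run from 6.80 to 6.87. MAS5, RMA and Partek appear in the submitters' processing notes, without the role of each. There is no count depth on an array, and precision comes from the number of arrays: the pooled difference had a median standard error of 0.108.

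After leaving out 77 control probe sets, 22548 were tested as deposited, with no filter, offset or further scaling. The platform annotation gives 1 symbol to 20766, several to 887 and none to 895, and 20701 were found in the WBcel235 gene table. Lists were read by the brightest 1-symbol probe set of a gene (17118 genes). The model was limma 3.58.1 (R 4.3.3), fitted to the strain means of the 9 arrays together, with 6 residual and 5.65 prior degrees of freedom. Its contrasts were the mean of both mutants, each mutant, and oga-1 minus ogt-1, with Benjamini-Hochberg adjustment over all 22548 at 0.05. Intervals are limma's unadjusted 95% intervals. Folds are ratios of array values. Where a mean lies at or below 6.26, its arrays were raised to that level and the fold is called "at least", a point estimate.

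The 66 gene lists, 8 further lists added after values were seen, the members and the rule for named genes were chosen with earlier results of these data known, and some lists were corrected after values were seen. The rule named both targeted genes, the 14 largest rises and falls with all 6 mutant arrays beyond the wild type arrays, for each list up to 5 movers of smallest p, up to 6 called genes uneven between the mutants and up to 6 of opposite sign. Genes named as neighbours, those of the added lists and those of the closing observations were chosen after their values were seen. On simulated data the fit recovered 93.0% of 200 probe sets changed by a log2 size of 1 among 22548, with 3.63% false calls. The simulated noise was independent between arrays, and the change was the same in both mutants. These rates check that the fit runs as meant. They do not carry over to the smaller median changes seen here or to arrays that deviate together.

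Alternatives were quantile and median scaling, filters on the dimmest 25% and 50%, a replicate block, trend with robust fitting, no moderation, the mutants as 1 group, stricter thresholds, other rules for a common move, averaging a gene's probe sets, and leaving out each array or wild type replicate 2 with oga-1 replicate 2. Replicate numbers were checked for pairing. Among 9 pairs of arrays that share a number, deviations from strain means correlated at -0.096 to 0.481, 4 of them over 0.1. All 3 such pairs of wild type and oga-1 did so (0.357 to 0.481) and those with ogt-1 mostly did not, so the block was kept as an alternative for the comparison of all strains. Probe-level data and images were not used here.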

Additional observations from a re-analysis of the deposited data

Results flagged for a closer look

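For 18 named genes the direct test between the mutants passed (limma, adjusted p under 0.05). The values are oga-1 minus ogt-1 differences on the log2 scale, each from 3 arrays a strain. For clec-3, nspa-9, gst-14 and srw-85 the dimmer strain lay at or below the yeast level of 6.26, so that their values are differences of array readings and the folds are at least 36.5, 2.51, 2.64 and 5.96. Among lectins and CUB-like genes they were -5.38 for clec-3, -1.09 for clec-66, -3.50 for dod-24, -1.02 for F55G11.8 and 0.75 for C17H12.8, the last larger in oga-1 (adjusted p = 0.0480). Among glutathione S-transferases they were -3.25 for gst-30, -2.66 for gst-10 and for gst-4, -1.98 for gst-14 and -1.50 for gst-38. All 14 genes of that list called between the mutants were lower in oga-1. The other negative differences were -2.80 for F01D5.2, -1.61 for osgn-1, a growth inhibitor homologue, -1.45 for nspa-9 and -1.04 for aqp-11, an aquaporin. The other positive ones were 3.76 for srw-85, 1.54 for sysm-1, 0.93 for aagr-1 and 0.54 for sip-1. In all, 13 probe sets with 1 symbol were called between the mutants with opposite signs and an unadjusted p under 0.05 in each mutant. The 6 of largest difference, gst-30, gst-10, gst-4, osgn-1, nspa-9 and aqp-11, were each above wild type in ogt-1 and below it in oga-1.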

How the results depend on the processing

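The count of genes that moved the same way stayed within 1.5 times of 854 under quantile normalisation (944), median centring (893), without the dimmest 25% (836) or 50% (697), with trend and robust fitting (826), with the mutants as 1 group (795), with all arrays separated (802) and with probe sets averaged per gene (943). Without variance moderation the counts were 346 probe sets in the pooled comparison, 262 genes that moved the same way and 51 probe sets between the mutants. At adjusted p under 0.01 the first 2 were 322 and 254. With at least 2-fold added the 3 counts were 109, 78 and 74. With each mutant called by itself 262 genes moved. Without wild type replicate 2 and oga-1 replicate 2 together the counts were 680 and 537. Over the arrays left out in turn the counts ran from 531 to 1257 probe sets, from 424 to 941 genes and, between the mutants, from 76 to 197. With the replicate block 1511 probe sets, 1159 genes and 176 probe sets between the mutants passed, and 844 of the 854 genes were among the 1159. Arrays of wild type and oga-1 with the same number correlated (0.357 to 0.481, against -0.428 to 0.052 for unlike numbers), a hint of pairing from the data, while those with ogt-1 lay between -0.096 and 0.113. In fits added after seeing the data, to the wild type and oga-1 arrays alone, 187 probe sets passed without and 1316 with the replicate block, and to wild type and ogt-1 alone 946 and 815. Of 206 named probe sets called, 97 passed without each array in turn, 32 of these lost their call without variance moderation, and 0 of the 206 changed sign in any of 20 settings. Among the 32 were hsp-16.2, hsp-12.3, tre-2, lys-2, irg-1, asp-7, his-64, ugt-22, lips-10, grd-10 and pcca-1. Treating the mutant arrays as 1 group ended the calls of 26 named genes, of which 10 were called between the mutants (clec-3, dod-24, F01D5.2, srw-85, gst-30, gst-10, gst-4, sip-1, gst-14 and aagr-1). Levels at or below 6.26, the dimmer side of 177 of the 938 probe sets, have no measured order.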

Other observations

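Among genes that moved the same way without each array in turn, chosen here after their values were seen, several on no list have known roles. The aquaporin genes aqp-3 and aqp-8, water or glycerol channels, went opposite ways, with a rise of at least 1.47-fold for aqp-3, dim in wild type, and a fall of 0.95 for aqp-8 (log2, mean of both mutants minus wild type). The claudin-like gene clc-1, of cell junctions, rose by 0.65 and the mitochondrial pyruvate carrier gene mpc-1 by 0.53. A dimmer clc-1 probe set, at 0.505, did not pass. Of signalling genes, sma-2, a Smad of the BMP-like body size pathway, fell by 0.71, and cat-4, the GTP cyclohydrolase needed for dopamine and serotonin, fell by 0.64. The glutaminase gene glna-2, which turns glutamine into glutamate, fell by 0.84, and clpp-1, a mitochondrial protease, by 1.12. Among the listed chemoreceptors the diacetyl receptor gene odr-10 fell by 0.65.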
